A study of Homo sapiens with 12 samples.

Results

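The untreated Ewing sarcoma cell lines TC-71 and A4573 were compared by RNA sequencing before any drug resistance was selected. The comparison takes 6 of the 12 libraries of the study: 3 of TC-71 parental and 3 of A4573 parental, all from cells given DMSO, the solvent of the drug. The other 6 libraries are of derivatives of the same lines that resist YK-4-279, a small molecule made against EWS-FLI1, and serve here only to see whether a difference was still there in the derivatives. The labels give the derivatives a dose of this drug, and the dose differs between the 2 lines. No genotype is given in the labels. Each group is a single established line, so every difference below is between these 2 lines, and nothing in the labels says that the libraries of a line came from separate cultures. The p-values then measure the spread between these libraries, which may be technical.

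Ewing sarcoma arises in bone or soft tissue, mostly in the young. Its cells carry a fusion of EWSR1, a gene for an RNA-binding protein, to a gene of the ETS family, most often FLI1. The fusion protein EWS-FLI1 binds DNA at GGAA repeats, switches on a set of genes that includes NR0B1 and NKX2-2, and holds down mesenchymal genes such as those of the matrix. Established lines share this driver and differ in other mutations, in chromosome number and in how far their mesenchymal or neural genes are on.

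The labelled cell type was checked with 9 markers of Ewing sarcoma. Of these, 7 were present in both lines: NR0B1, a nuclear receptor that EWS-FLI1 activates, was at 84.9 to 88.5 CPM (the deposited unit, read counts scaled to the size of the library) in the A4573 libraries and at 186 to 188 CPM in those of TC-71. NKX2-2, a homeobox factor, was at 28 to 29 CPM against 17.8 to 19.5 CPM, and BCL11B, a zinc finger repressor, was at 77.3 CPM (SD 4.37, n = 3) against 77.1 CPM (SD 1.57, n = 3). CCK, which encodes cholecystokinin and is a common product of these tumours, was at 67.4 to 69.1 CPM in A4573 and at 0.262 to 0.299 CPM in TC-71. CD99, the surface protein used to diagnose the tumour, was listed near 0 in both lines, at no more than 0.0133 CPM in any library. CD99 lies in a pseudoautosomal region, which the annotation holds once on each sex chromosome, and all 18 protein-coding genes of those regions were under 0.1 CPM on average, so these values are not a measure of the gene. Markers of blood cells and endothelium were low. From 14 blood cell markers only PTPRC passed the filter, at 1.07 CPM in TC-71, and from 12 endothelial markers only EMCN, at 2.06 CPM in A4573. The 14 blood markers added up to 1.77 to 1.82 CPM in the A4573 libraries and 1.56 to 1.96 CPM in those of TC-71, with MS4A1 and HBB at 0. The 12 endothelial markers added up to 4.25 to 4.87 CPM and 0.531 to 0.668 CPM. Fibroblast and pericyte markers were not low, with a sum of 699 CPM in A4573 and 103 CPM in TC-71. They are described below, with the contractile genes and the epithelial markers.

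The 6 libraries hold 48.2 M to 56.2 M reads in named genes. Libraries of the same line correlated at r = 0.999 across genes and libraries of different lines at 0.812 to 0.814, and the biological coefficient of variation within a line was 2.54% in A4573 and 2.73% in TC-71. The libraries of a line still differed by more than sampling noise, with a chi-square per degree of freedom of 2.31 to 6.52 for the 6 pairs. Mitochondrially encoded transcripts took 2.61% to 2.95% of the named reads in A4573 and 6.43% to 7.58% in TC-71, without overlap. Rescaling over the named reads alone moved the median difference of the tested genes from 0.02 to 0.096 on the log2 scale. Leaving the mitochondrially encoded genes out as well moved it to 0.16. The number of genes tested changed with the scaling, from 13809 to 14571 and 14666. Of 12 tested nuclear long noncoding RNAs, such as MALAT1, 9 were higher in TC-71 and 2 lower. What part these features have in the results below was not tested.

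The test was limma on log2(CPM + 1), applied to the 13809 of 56609 gene symbols that reached 1 CPM in 3 or more of these 6 libraries. A gene was called higher or lower at a Benjamini-Hochberg adjusted p under 0.05 over all tested genes. With replicates this alike, 12798 genes were called, or 92.7% of those tested: 6502 (47.1%) were higher in TC-71 and 6296 (45.6%) lower. In 92.8% of the genes tested, the 3 libraries of TC-71 did not overlap the 3 of A4573. A call alone therefore says little here, and sizes are given throughout. At 2-fold or more, 2283 genes (16.5%) were higher in TC-71 and 2089 (15.1%) lower. The median absolute difference was 0.64 and the median signed difference 0.02 (all log2 differences are TC-71 minus A4573 on log2(CPM + 1), which understates the ratio of genes with few CPM).

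The genes furthest apart were on in one line and near 0 in the other. COL1A2, the alpha 2 chain of type I collagen, was at 295, 285 and 296 CPM in the A4573 libraries and at 0.0596, 0.0242 and 0.0333 CPM in those of TC-71, a log2 difference of -8.14 (SE 0.03, limma adjusted p = 1.49e-20). KDM5C, an X-linked histone H3 lysine 4 demethylase, was at 266, 264 and 271 CPM in A4573 and at 0.572, 0.592 and 0.588 CPM in TC-71 (log2 difference -7.40). CCND2, cyclin D2, was at 128, 130 and 127 CPM against 0.131, 0.121 and 0.133 CPM. Each of these 3 genes was high in all A4573 libraries and under 1 CPM in all TC-71 libraries. BGN, the matrix proteoglycan biglycan, FLNC, the muscle filamin, and MXRA5, HAPLN1 and FBN2, which also encode matrix proteins, are among the 12 lowest genes of TC-71, as is CRABP1, a retinoic acid binding protein. TNS3, a tensin of focal adhesions, was at 104 to 107 CPM in A4573 and had no read in any TC-71 library, at least 2899-fold lower against a floor of 3 reads per library.

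In the other direction, NEFH, the heavy neurofilament, was at 0, 0.0116 and 0.0482 CPM in A4573 and at 172, 173 and 174 CPM in TC-71 (log2 difference 7.42, SE 0.04, limma adjusted p = 4.40e-20). CTCFL, a germline paralogue of the insulator protein CTCF, was at 0.306 to 0.410 CPM against 217 to 220 CPM. ITGB2, the integrin beta 2 chain of white blood cells, was at 1.24 to 1.48 CPM against 255 to 263 CPM, although the other blood markers were near 0 in TC-71. NEK9, a mitotic kinase, was at 0.477 to 0.545 CPM against 158 to 161 CPM. WDFY3, an autophagy scaffold, and LTBR, the lymphotoxin beta receptor, had no read in A4573 and were at 79.5 CPM (SD 1.84, n = 3) and 61.4 CPM (SD 0.924, n = 3) in TC-71, at least 1994-fold and 1539-fold higher. The other 6 of the 12 highest were CYTL1, STMN4, SLC34A2, GDF10, PCBP3 and PLEKHG4, with means of 84.7 to 120 CPM in TC-71 and under 1 CPM in A4573.

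**Figure D1:**
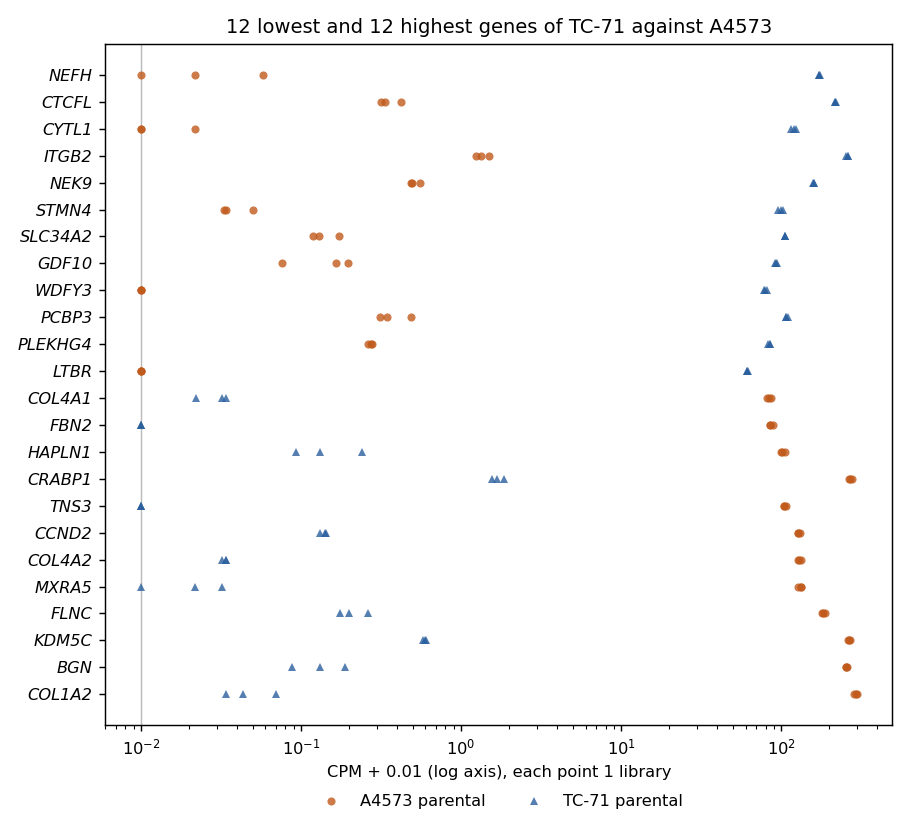
CPM plus 0.01 (log axis) in each of the 6 libraries for the 12 lowest and 12 highest genes of TC-71 against A4573 (circles, A4573 parental; triangles, TC-71 parental; each point is 1 library). The grey line marks a value of 0. The genes were picked among those without overlap between the libraries of the 2 lines. COL1A2 sits at 285 to 296 CPM in A4573 and NEFH at 172 to 174 CPM in TC-71.

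Cell division genes were lower in TC-71. Of 36 genes of mitosis and the G2/M phase, all 36 were lower and 35 by 2-fold or more, with a median log2 difference of -2.20 beside 0.02 for all tested genes. MKI67, the proliferation antigen Ki-67, was at 327, 335 and 314 CPM in A4573 and at 23.5, 21 and 21 CPM in TC-71 (log2 difference -3.84, SE 0.04, limma adjusted p = 1.03e-17). CCNB1, cyclin B1, which starts mitosis with CDK1, was at 235, 241 and 241 CPM against 20.7, 21.7 and 21.2 CPM. The libraries of the 2 lines lie far apart for both genes. AURKB, the kinase of the chromosomal passenger complex, was at 101 CPM on average in A4573 and 8.83 CPM in TC-71, and FOXM1, the factor that drives G2/M transcription, at 209 and 37.6 CPM. The exception in size was CDC25C, at 9.55 and 6.43 CPM. Summed over the list, the A4573 libraries held 4796 to 4870 CPM and the TC-71 libraries 874 to 896 CPM.

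Genes of DNA replication were lower too, by less: 29 of 32 were lower, 1 was higher and 2 were not called, with 20 lower by 2-fold or more and a median of -1.33. RRM2, the small subunit of ribonucleotide reductase, was at 102, 105 and 106 CPM in A4573 and at 7.69, 7.91 and 7.75 CPM in TC-71. The helicase subunits MCM2 to MCM7 were between 129 and 345 CPM in A4573 and between 63.6 and 213 CPM in TC-71, and PCNA, the sliding clamp, was at 151 and 59.2 CPM. RFC4, a clamp loader subunit, was the gene that was higher (54.0 against 62.1 CPM). E2F1, which drives this programme, differed less than most of it (66.4 against 45.2 CPM). Replication-dependent histone genes went the other way, with 11 of 12 tested higher and 9 by 2-fold or more (75%, beside 16.5% of all genes). Another 7 of the 19 listed were under the filter. HIST1H4H (0.653 CPM in A4573 and 10.4 CPM in TC-71) passed it only through TC-71, so the count describes only the genes that passed. HIST1H2AC was at 4.83 CPM in A4573 and 78.1 CPM in TC-71 and HIST1H1C at 2.61 and 28.4 CPM. These mRNAs normally end without a poly(A) tail, and the labels do not say whether polyadenylated RNA was selected. Cell cycle phase and growth rate were not measured, and fewer dividing cells and less RNA per dividing cell cannot be told apart in bulk RNA.

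Genes of late cell cycle are known to carry 2 promoter elements, the CHR, which the DREAM and MYB complexes bind, and the CCAAT box of NF-Y. Promoters of 300 bases (250 before the start and 50 after, RefSeq on GRCh38.p14, the first entry of a gene) were found for 30 of the 36 mitosis genes. On either strand, TTTGAA was in 66.7% of them (20 of 30) and in 15.4% of all 27305 promoters, and CCAAT was in 76.7% (23 of 30) and in 35.7% of all. A match is a run of letters, not a measured site. The stretches before the start of 4 of the lowered genes are shown because they hold both motifs, in capitals (TTTGAA and CCAAT, or their reverse complements TTCAAA and ATTGG). They lie at chr16:23678779-23678888 (PLK1, plus strand), chr15:59105021-59105145 (CCNB2, plus), chr10:128126424-128126533 (MKI67, minus) and chr1:43358871-43358980 (CDC20, plus), each ending at the base before the start.
PLK1: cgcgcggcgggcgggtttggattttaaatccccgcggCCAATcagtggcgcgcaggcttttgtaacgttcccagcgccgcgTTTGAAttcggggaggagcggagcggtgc
CCNB2: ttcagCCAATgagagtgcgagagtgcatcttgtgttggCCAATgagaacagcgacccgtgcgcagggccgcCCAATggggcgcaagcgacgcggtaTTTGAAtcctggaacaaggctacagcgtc
MKI67: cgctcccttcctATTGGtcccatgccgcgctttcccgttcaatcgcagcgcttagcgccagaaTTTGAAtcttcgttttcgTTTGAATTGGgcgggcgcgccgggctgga
CDC20: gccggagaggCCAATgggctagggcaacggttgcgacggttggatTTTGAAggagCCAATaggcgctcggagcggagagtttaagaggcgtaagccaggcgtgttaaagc
PLK1, a mitotic kinase, was at 195 to 198 CPM in A4573 and 41.8 to 44.0 CPM in TC-71, CCNB2 at 74.3 to 74.8 and 11.5 to 12.5 CPM, and CDC20, the activator of the anaphase complex, at 160 to 162 and 38.3 to 39.7 CPM. In MKI67 the 2 motifs overlap at the second TTTGAA.

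Stress genes of the ATF4 pathway were higher in TC-71. ATF4 is a transcription factor whose mRNA is translated when cells lack amino acids or their endoplasmic reticulum is stressed, and its targets import and make amino acids and limit the stress. All 21 genes of the list were higher in TC-71, 18 by 2-fold or more, with a median of 2.17. TRIB3, a pseudokinase that ATF4 induces, was at 17.6, 17.4 and 18.3 CPM in A4573 and at 607, 626 and 632 CPM in TC-71 (log2 difference 5.05, SE 0.03, limma adjusted p = 4.40e-20). DDIT3, which encodes the stress factor CHOP, was at 27.1, 27.1 and 28.2 CPM against 428, 442 and 438 CPM. Both genes were more than 10 times higher in every TC-71 library. ATF4 itself was at 286 to 300 CPM and 407 to 424 CPM, a log2 difference of 0.50. The amino acid transporters SLC7A5 (199 against 667 CPM), SLC7A1 (78.8 against 344 CPM) and SLC3A2 (104 against 281 CPM) were higher, and the cystine transporter SLC7A11 was nearly level at 34.2 and 39.6 CPM. ASNS, asparagine synthetase, was low in both lines, at 0.783 to 0.917 CPM and 8.52 to 9.43 CPM. GDF15 and INHBE, secreted factors known to respond to this stress, were at 0.0283 and 0.233 CPM in A4573 and 29.6 and 25.5 CPM in TC-71.

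ATF4 binds composite elements with C/EBP proteins, of which TGATGNAA is a short form. This motif was chosen after the values had been seen. It was found on either strand in 5 of 19 promoters of the list (26.3%) and in 3.67% of all promoters. Of those 5 genes, 3 are shown with the motif in capitals (TGATGNAA or TTNCATCA): ASNS at chr7:97872409-97872508 (minus strand, the last 100 bases before the start), CHAC1 at chr15:40953241-40953291 (plus) and ATF3 at chr1:212565192-212565242 (plus).
ASNS: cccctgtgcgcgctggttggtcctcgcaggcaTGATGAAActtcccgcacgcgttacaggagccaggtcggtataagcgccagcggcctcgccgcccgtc
CHAC1: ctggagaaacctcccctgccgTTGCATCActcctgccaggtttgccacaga
ATF3: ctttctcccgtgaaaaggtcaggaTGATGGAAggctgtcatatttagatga
CHAC1, which degrades glutathione, was at 4.55 to 4.73 CPM in A4573 and 54.3 to 57.6 CPM in TC-71, and ATF3, a stress-induced factor, at 5.06 to 5.37 and 50.1 to 54.0 CPM. TRIB3 and DDIT3 have no match in this window.

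The other arms of the unfolded protein response did not move as a group: 10 of 18 genes were higher, 7 lower and 1 not called. Higher in TC-71 were XBP1, the factor spliced by IRE1 (20.8 against 168 CPM), ERN1, which encodes IRE1 (6.67 against 46.6 CPM), and HERPUD1 and SEL1L of protein degradation at the endoplasmic reticulum (13.4 against 86.0 and 40.0 against 156 CPM). The chaperones PDIA4 (378 against 144 CPM) and CALR (593 against 247 CPM) were lower, and HSPA5, which encodes BiP, was at 458 CPM (SD 10.5, n = 3) and 514 CPM (SD 20.4, n = 3). Of 15 genes of serine, glycine and one-carbon metabolism, 8 were higher and 5 lower. The mitochondrial enzymes MTHFD2 (179 against 593 CPM), MTHFD1L (57.9 against 203 CPM), ALDH1L2 (62.6 against 214 CPM) and SHMT2 (263 against 513 CPM) were higher. The cytosolic SHMT1 (25.1 against 6.94 CPM), and TYMS (68.2 against 26.8 CPM), which makes thymidylate for replication, were lower. PHGDH, the first enzyme of serine synthesis, was not called (361 and 351 CPM, limma adjusted p = 0.097).

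**Figure D2:**
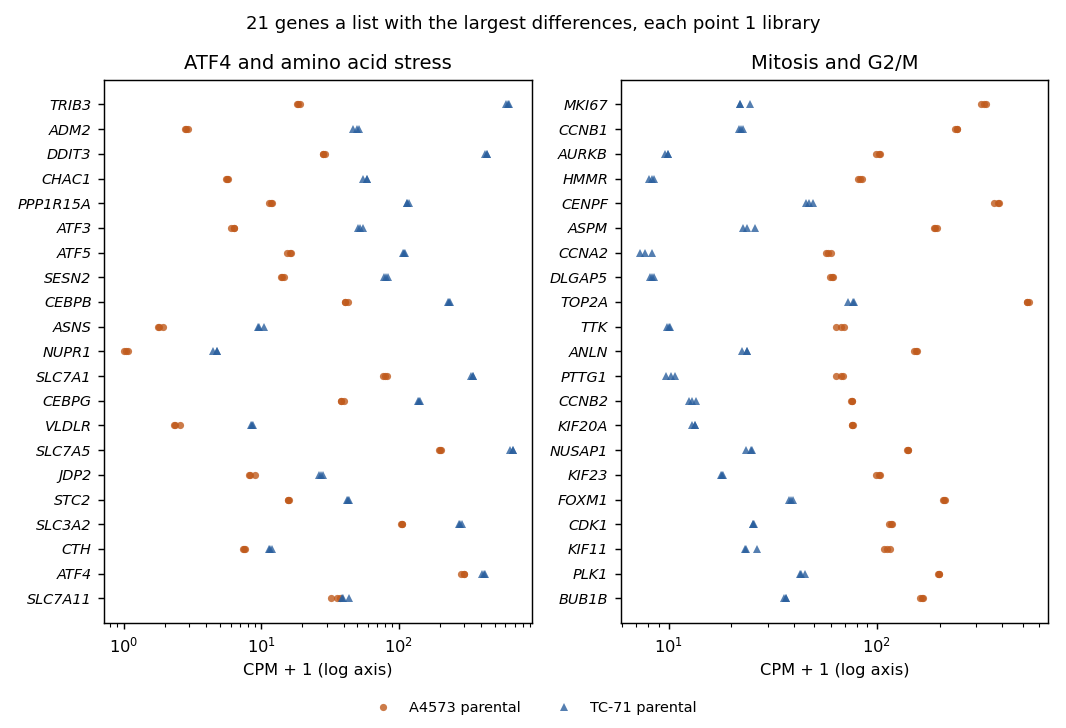
CPM plus 1 (log axis) in each library for the 21 genes of the ATF4 list and the 21 mitosis genes with the largest differences (circles, A4573 parental; triangles, TC-71 parental; each point is 1 library). The TC-71 libraries lie to the right of A4573 for the stress genes, narrowly for SLC7A11, and to the left for every mitosis gene shown.

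Matrix and contractile genes were mostly lower in TC-71. Of 40 genes for matrix proteins and matrix enzymes other than collagens, 28 were lower, 25 of them by 2-fold or more, and 12 were higher, with a median of -1.68 (-1.82 with the genes that had no read in TC-71 placed at their bound). FN1, fibronectin, was at 733, 711 and 700 CPM in A4573 and at 31.5, 31.2 and 32.2 CPM in TC-71 (log2 difference -4.45). NID1, the basement membrane linker nidogen, was at 171 and 11.5 CPM, and the lysyl oxidase LOX, which crosslinks collagen, at 36.6 and 4 CPM. The genes that were higher include the laminin chains LAMA5 (12.4 against 108 CPM) and LAMB2 (25.6 against 66.0 CPM) and the protease inhibitor TIMP1 (62.5 against 238 CPM). The list is therefore not low throughout.

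Of 26 collagen genes, 18 were lower and 8 higher. Beside COL1A2, COL4A1 and COL4A2, TC-71 had little of COL11A1 (30.0 against 0.0157 CPM) and COL14A1 (33.3 against 0.812 CPM), but not of every collagen. COL1A1, whose product joins that of COL1A2 in type I collagen, was at 13.6 to 14.4 CPM in A4573 and 18.4 to 18.8 CPM in TC-71. COL3A1, type III collagen, was at 281 to 288 CPM and 69.2 to 69.9 CPM, and COL9A2, a cartilage collagen, at 0.375 and 18.8 CPM. COL4A1 and COL4A2, the chains of basement membrane collagen, lie head to head on chromosome 13 and share a promoter. Both were on in A4573 (81.1 to 86.6 and 128 to 133 CPM) and at or under 0.0242 CPM in each TC-71 library. The 126 bases between their RefSeq starts, chr13:110307158-110307283, are shown on the strand of COL4A1 (minus), with the only CCAAT match, ATTGG, in capitals.
COL4A1: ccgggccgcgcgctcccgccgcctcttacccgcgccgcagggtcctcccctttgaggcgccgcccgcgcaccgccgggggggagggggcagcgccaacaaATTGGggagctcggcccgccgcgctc
The annotated gene bodies of this pair overlap, so reads from the overlap cannot be given to either without strand.

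All but 1 of 14 tested muscle and contractile genes were lower, 10 by 2-fold or more, with a median of -1.63. These were genes that many mesenchymal cells express: FLNA, filamin A (1233 against 210.2 CPM), MYH10, a nonmuscle myosin (372 against 60.2 CPM), CALD1, caldesmon (73.2 against 13.9 CPM), and ACTA2, smooth muscle actin (14.1 against 1.56 CPM). DES and MYOG, which mark muscle, had no read in any library, and TAGLN was low in both (1.97 and 1.48 CPM). Of 13 tested fibroblast and pericyte markers, 9 were lower, 2 higher and 2 not called, and their sum was 692 to 707 CPM in A4573 and 99.5 to 106 CPM in TC-71. THY1 was at 107 and 0.434 CPM, LUM at 58.3 and 3.99 CPM, and PDGFRB, the platelet-derived growth factor receptor of pericytes, at 62.9 and 33.0 CPM. Genes that EWS-FLI1 is reported to hold down in Ewing sarcoma cells were lower in 11 of 19 cases and higher in 7, with all 9 differences of 2-fold or more on the lower side, among them IGFBP3 (25 against 0.567 CPM), THBS1 (13.0 against 0.0428 CPM) and CTGF (22.2 against 1.45 CPM). VIM, vimentin, was not called (262 and 255 CPM, limma adjusted p = 0.069).

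**Figure D3:**
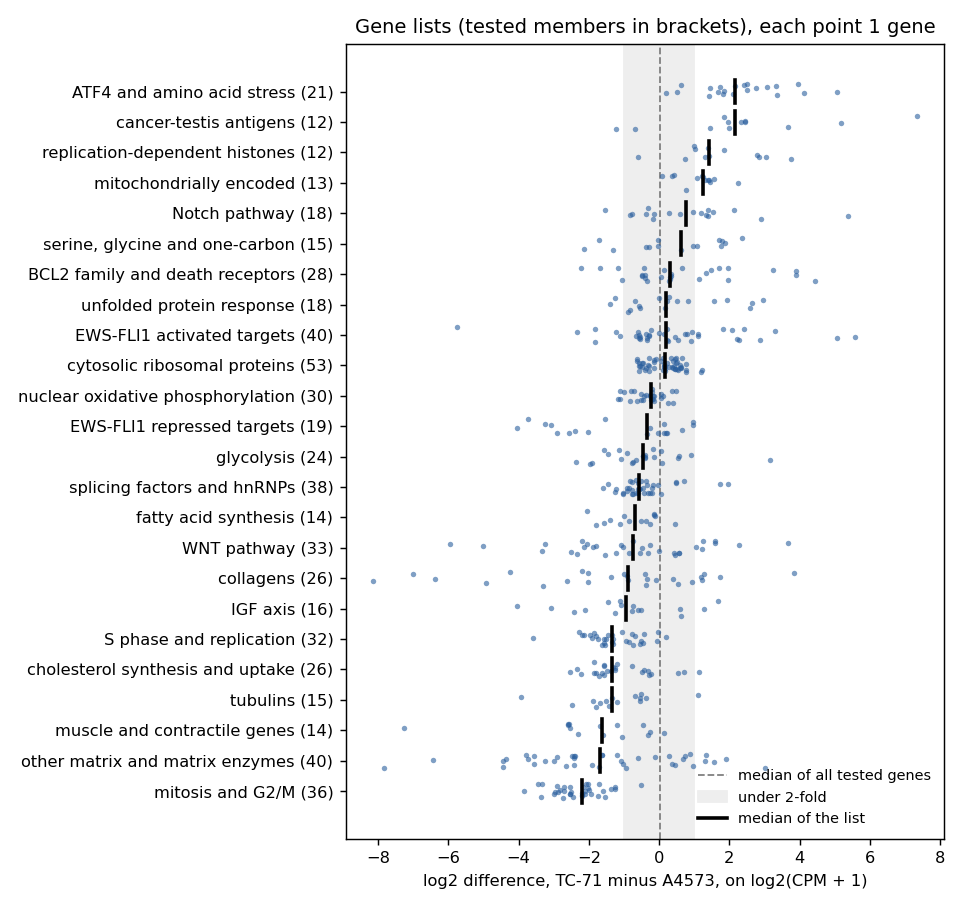
The log2 difference, TC-71 minus A4573, of each tested member of 24 gene lists (each point is 1 gene, black bars are list medians, the dashed line is the median of all 13809 tested genes, and the grey band marks differences under 2-fold). The ATF4 list has the highest median, 2.17, and the mitosis list the lowest, -2.20, and most other lists hold genes on both sides.

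Enzymes of sterol synthesis and sugar breakdown were lower in TC-71. Of 26 genes of cholesterol synthesis and uptake, 23 were lower, 17 by 2-fold or more, and 3 were higher, with a median of -1.34. DHCR7, the last step of synthesis, was at 155, 158 and 156 CPM in A4573 and at 26.1, 26.2 and 26.2 CPM in TC-71 (log2 difference -2.53). SQLE, squalene epoxidase, was at 442 to 466 and 150 to 156 CPM. The sterol response element of SREBP, searched as TCACNCCAC on either strand, was in 1 of 19 promoters of the list (5.26%) and in 1.15% of all. Of 14 fatty acid synthesis genes, 13 were lower, with SCD, stearoyl-CoA desaturase, at 605 and 301 CPM and FASN at 532 and 445 CPM.

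Of 24 glycolysis genes, 18 were lower and 6 higher. GAPDH, often used as a reference gene, was at 2991 and 769 CPM, LDHA, lactate dehydrogenase A, at 887 and 234 CPM, and PKM, pyruvate kinase, at 974 and 357 CPM. ENO2, the neuronal enolase, was higher in TC-71, at 7.85 and 78.3 CPM, while the common form ENO1 was lower. Nuclear genes of oxidative phosphorylation had a median of -0.23 with none higher by 2-fold. Mitochondrially encoded genes were higher, 12 of 13 with a median of 1.24: MT-ND1 of complex I was at 691 to 703 CPM in A4573 and 2983 to 3871 CPM in TC-71, while MT-CO3 of complex IV was at 2327 and 2482 CPM and not called. The transcripts of this genome were therefore higher by unequal amounts.

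Among 40 genes that EWS-FLI1 is reported to activate, 21 were higher in TC-71, 18 lower and 1 not called. Among all tested genes 47.1% were higher and 45.6% lower. Of the 40, 11 were higher by 2-fold or more (27.5%, beside 16.5% of all genes) and 6 lower (15%, beside 15.1%). FLI1, whose count also holds the 3′ part of the fusion mRNA, was at 36.2, 37 and 38.1 CPM in A4573 and at 23.8, 23.6 and 23.4 CPM in TC-71 (log2 difference -0.63). EWSR1 was at 242 and 187 CPM and the RNA helicase DHX9, the partner that YK-4-279 was made to displace, at 564 and 208 CPM. ERG, the other common fusion partner, was under 1 CPM in all 6 parental libraries. Higher in TC-71 were EGR2, a growth factor response gene and Ewing sarcoma susceptibility gene (2.45 against 165 CPM), PADI2, a peptidylarginine deiminase (0.0246 against 33.6 CPM), PRKCB, protein kinase C beta (95.9 against 446 CPM), SLCO5A1 (31.7 against 239 CPM) and the telomerase gene TERT (1.73 against 13.5 CPM). Lower were CCK, RBM11 (116 against 22.1 CPM) and EZH2, the polycomb methyltransferase (125 against 34.7 CPM). The activated genes thus went both ways, as all tested genes did, and these libraries do not separate full-length FLI1 from the fusion.

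Transcription factors of development differed in both directions, 14 higher and 17 lower by 2-fold or more of 55 tested. A4573 expressed OTX2 of the forebrain (79.1 against 0.117 CPM), SOX9 of cartilage and neural crest (45.4 against 0.0037 CPM), TBX5 of the heart and forelimb (29.2 against 0.0348 CPM) and ZIC1 (11.6 against 0.0037 CPM). TC-71 expressed PAX7 of muscle and neural crest (5.02 against 112 CPM), POU3F2 of neurons (3.38 against 71.3 CPM) and NKX6-1 of motor neurons and islet cells (0.0172 against 27.1 CPM). Of 14 tested neural crest genes, 9 were lower and 4 higher, with 8 lower and 2 higher by 2-fold or more and a median of -1.32. TFAP2B (88.6 against 0.776 CPM) and PRRX1 (79.5 against 1.63 CPM) were on in A4573, and FOXD3 (1.76 against 21.6 CPM) and SNAI2 (9.22 against 26.2 CPM) were higher in TC-71. Of 23 neuronal and synaptic genes, 12 were higher and 9 lower: TC-71 had NEFH, STMN4, SYN1 (9 against 90 CPM) and MAP2 (0.173 against 10.8 CPM), and A4573 had L1CAM (74.6 against 0.527 CPM), DCX (43.6 against 0.910 CPM) and NRXN2 (24.6 against 0.497 CPM). Each line had its own set of neuronal genes.

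HOX genes set position along the body axis. HOXD13, the last gene of its cluster, was present in both lines, at 181 and 154 CPM. HOXB9 was at 2.38, 2.62 and 2.88 CPM in A4573 and at 60.4, 60.8 and 65.3 CPM in TC-71 (log2 difference 4.12), and HOXB13 in the same cluster at 81.4, 83.8 and 83.1 CPM against 20.5, 21.4 and 21.9 CPM (log2 difference -1.91). The 2 genes moved in opposite directions. HOXD8 was at 10.2 and 59.9 CPM and HOXA11 at 1.06 and 11.7 CPM. None of 8 tested HOXC genes differed by 2-fold on log2(CPM + 1). HOXC11 came closest (14.9 against 7.17 CPM, log2 difference -0.96), and its plain CPM values are just over 2-fold apart.

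Genes of each signalling pathway went both ways, as did all tested genes (47.1% higher and 45.6% lower). Of 18 Notch genes 11 were higher in TC-71 and 7 lower, with 8 higher and 1 lower by 2-fold or more. The ligand gene JAG2 was at 1.12, 1.08 and 1.12 CPM in A4573 and at 87.7, 85.9 and 86.2 CPM in TC-71. The targets NRARP (1.03 against 14.1 CPM) and HES1 (30.8 against 82.0 CPM) were higher as well. So was HES6 (11.8 against 54.8 CPM), a gene of the HES family not counted here as a Notch target. The receptors NOTCH1 and NOTCH3 were lower (51.0 against 39.5 and 109 against 63.7 CPM). Of 33 WNT genes 11 were higher and 21 lower. The secreted inhibitors FRZB (71.5 against 0.176 CPM), SFRP2 (31.3 against 0.0037 CPM) and SFRP1 (9.59 against 0.112 CPM) and the receptor LGR5 (15.9 against 0.675 CPM) were on in A4573. TC-71 had more of the receptor FZD7 (7.12 against 102 CPM), the inhibitor DKK2 (11.6 against 60.3 CPM) and the factor LEF1 (11 against 34.9 CPM). Of 16 genes of the IGF axis 12 were lower, among them 6 binding proteins such as IGFBP4 (190 against 34.8 CPM) and IGFBP2 (280 against 102 CPM), while the adaptor IRS1 (51.5 against 166 CPM) and the scavenging receptor IGF2R (111 against 272 CPM) were higher. Of 26 tested receptor tyrosine kinases 13 were higher and 12 lower, with 7 each way by 2-fold or more (26.9%, beside 16.5% and 15.1% of all genes). EGFR was at 8.40 CPM in A4573 with no read in TC-71 and KIT was lower in TC-71 (72.2 against 6.68 CPM), while ALK (2.75 against 30.3 CPM) and MERTK (4.43 against 23.3 CPM) were higher. Of 37 TGF-beta and BMP genes 23 were higher and 13 lower, of 18 FGF genes 11 were higher and 6 lower, and of 12 Hedgehog genes 4 were higher and 6 lower.

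Genes of the G1 checkpoint differed between the lines by unequal amounts. CDKN2A, which encodes the inhibitors p16 and p14ARF, was at 72.4, 73.6 and 78.9 CPM in A4573 and at 0.179, 0.121 and 0.144 CPM in TC-71 (log2 difference -6.05, SE 0.05, limma adjusted p = 8.67e-19). Its neighbour MTAP was at 51.1 and 10.8 CPM, and CDKN2B was under 1 CPM in both lines. The next tested genes, KLHL9 on one side (31.8 against 15.0 CPM) and DMRTA1 on the other (1.32 against 3.05 CPM), were detected in both lines. STAG2, the cohesin subunit gene mutated in a part of these tumours, was at 22.2 and 97.5 CPM. Of the D cyclins, CCND1 was at 633 and 747 CPM in A4573 and TC-71, whereas CCND2 and CCND3 (53.3 against 6.71 CPM) were lower in TC-71. RB1 was nearly level, at 44.7 and 42.3 CPM.

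Of 28 genes of the BCL2 family and the death receptor pathway, 17 were higher in TC-71 and 10 lower. By 2-fold or more 10 were higher and 4 lower (35.7% and 14.3%, beside 16.5% and 15.1% of all genes). CASP8, the initiator caspase of death receptors, was at 0.319, 0.372 and 0.241 CPM in A4573 and at 27.3, 27.1 and 28.0 CPM in TC-71 (log2 difference 4.44). CASP10, its neighbour on chromosome 2, was at 0.0403 and 14.4 CPM. The BH3 genes HRK (0.0325 against 14.4 CPM), BBC3 (1.04 against 6.89 CPM) and PMAIP1 (8.35 against 35.6 CPM) and the receptors TNFRSF10A (2.76 against 11.4 CPM) and TNFRSF10B (93.8 against 240 CPM) were higher in TC-71, and APAF1 of the apoptosome was lower (63.7 against 19 CPM). FAS was at 12.4 and 1.86 CPM, and its annotated body overlaps that of ACTA2, which was also lower.

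Cancer-testis antigens, normally confined to germ cells, were on more often in TC-71. Of 42 such genes 12 passed the filter, 10 of these were higher in TC-71 and 2 lower, and the other 30 were under it, so the count describes only the genes that passed. By 2-fold or more 10 were higher and 1 lower (83.3% and 8.33%, beside 16.5% and 15.1% of all genes). MAGEA1 had no read in A4573 and was at 33.5, 36.0 and 36.7 CPM in TC-71, at least 888-fold higher. PRAME was at 0.0168 and 11.9 CPM and CTCFL at 0.347 and 218 CPM, while LIPI (28.4 against 11.6 CPM) was lower. Several MAGEA genes are close copies, between which reads can be split, so their single values are uncertain. The summed level of the list was 31.7 to 34.3 CPM in A4573 and 310 to 318 CPM in TC-71. Most of the sum was 1 gene in each line, LIPI in A4573 (28.4 CPM) and CTCFL in TC-71 (218 CPM), so it does not describe the list as a whole. Of 26 epithelial markers 13 were under the filter. Of the 13 tested, 9 were higher in TC-71 and 4 lower, with a median of 1.06. By 2-fold or more 7 were higher and 3 lower (53.8% and 23.1%, beside 16.5% and 15.1% of all genes). Among the higher ones, ESRP1, an epithelial splicing factor, was at 2.68 and 13.3 CPM, and DSP, desmoplakin, at 11.6 and 28.3 CPM. KRT18, a keratin of simple epithelia, was at 0.0080 CPM in A4573 and 17.8 to 18.5 CPM in TC-71, but CDH1 and GRHL2, which define epithelium, were at or near 0 in both lines.

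Immediate early genes were higher in 13 of 18 cases and lower in 5. By 2-fold or more 8 were higher (44.4%, beside 16.5% of all genes) and none lower. JUN was at 10.7 and 58.1 CPM, EGR1 at 1.52 and 15.8 CPM and MYC at 277 and 646 CPM. Tubulins were lower in 14 of 15 cases, 9 by 2-fold or more (60%, beside 15.1% of all genes). TUBA4A was at 56.3 and 2.75 CPM, TUBB4B at 394 and 69.9 CPM and TUBB3 at 6.71 and 1.12 CPM. Of 38 splicing factors 31 were lower, but only 6 by 2-fold or more (15.8%, beside 15.1% of all genes). The transporter ABCA3 was at 4.82 and 166 CPM and ABCB1, the multidrug efflux pump, at 0.202 and 5.86 CPM. The chromatin factors HMGA2 (208 against 49.0 CPM) and DNMT1 (328 against 111 CPM) were lower in TC-71.

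At a mean of at least 10 CPM in one line and under 0.1 CPM in the other, 65 genes were on in A4573 only and 62 in TC-71 only, leaving out chromosome Y genes and XIST. In the resistant derivatives, 64 of the 65 were still higher in A4573-R than in TC-71-R without overlap, and 61 of the 62 the other way round. MEST, an imprinted gene, and KLHDC7B were the exceptions. The same held for all of the 12 highest and 12 lowest genes. Fewer kept the same cut: 36 of the 65 and 39 of the 62 still had at least 10 CPM in one derivative and under 0.1 CPM in the other. The derivatives descend from these lines and are no independent test. Among the parents 92.8% of all tested genes had no overlap, and the share between the derivatives was not counted.

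Other differences did not carry over. Of the 21 genes of the ATF4 list, all higher in TC-71 among the parents, 17 had a lower mean in TC-71-R than in A4573-R and 4 a higher one. TRIB3 was at 66.5 CPM in A4573-R and 62.8 CPM in TC-71-R on average, DDIT3 at 82.9 and 115 CPM, ATF3 at 51.4 and 11.9 CPM and CHAC1 at 63.6 and 8.02 CPM. HOXB9 was reversed as well, at 16.0 CPM in A4573-R and 3.79 CPM in TC-71-R. The mitosis genes kept their direction in 35 of 36 cases, the cholesterol genes in 25 of 26, the matrix genes in 34 of 40 and the collagens in 23 of 26. The WNT genes did so in 33 of 33 cases, the Hedgehog genes in 6 of 12 and the HOXB genes in 2 of 9. The share of all tested genes that kept their direction was not counted. These are directions of group means, and the change between parents and derivatives was not tested here. The labelled drug dose also differs between A4573-R and TC-71-R.

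Some of these genes are neighbours. Within 1 Mb of each other on chromosome 4 lie 4 genes on in TC-71 only, at chr4:84491987-86002670 (GRCh38): NKX6-1 (27.1 CPM in TC-71), CDS1 of phosphatidylinositol synthesis (22.3 CPM), WDFY3 (79.5 CPM) and ARHGAP24 (10.1 CPM). WDFY3-AS2, the remaining tested gene in this stretch, was at 0 and 4.39 CPM. The 5 tested genes were at or under 0.0327 CPM in A4573, and the tested neighbours GPAT3 (1.05 against 7.70 CPM) and MAPK10 (9.23 against 4.61 CPM) were present in both lines. On chromosome 12, TBX5 and its antisense gene TBX5-AS1 were on in A4573 only (29.2 and 26.6 CPM). Reads of this pair cannot be told apart where they overlap unless strand was used.

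Zinc finger genes of chromosome 19 formed another run. Of 33 ZNF genes tested between 19 and 25 Mb, 32 were lower in TC-71 and 30 by 2-fold or more, with a median of -2.66, and none was higher. ZNF93 and ZNF91 there were among the genes on in A4573 only. Of windows of 20 consecutive tested genes, the one with the lowest median lies there, at chr19:21291160-24129961 (20 of 20 lower by 2-fold or more, median -2.22). Among 233 ZNF genes of other chromosomes, 131 were higher and 85 lower, with a median of 0.20, and the other 718 tested genes of chromosome 19 had a median of -0.06. These groups were set after the values had been seen, so no test is given. ZNF genes of this kind are near copies of one another, and some reads may have been assigned to a relative.

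Among the nuclear chromosomes other than Y, the X had the lowest median (-0.51, with 32.2% of 503 genes above 0) and chromosome 11 the next (-0.37), and chromosomes 13, 14 and 18 the highest (0.43, 0.42 and 0.42). On chromosome 11, the 22 tested genes beyond the end of FLI1 had a median of -1.28, with 21 lower and 18 by 2-fold or more, beside -0.34 for the 730 tested genes before FLI1. This split at FLI1 was not among the planned groups, so no test is given. A window among those with the lowest medians lies in the same stretch (chr11:129375940-134411918, median -1.445). Copy number was not measured. Highest among windows was chr16:30378106-30923269, with 13 of 20 genes higher by 2-fold or more (median 1.5), and the next held histone genes at chr6:21592768-26171349 (median 1.44).

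**Figure D4:**
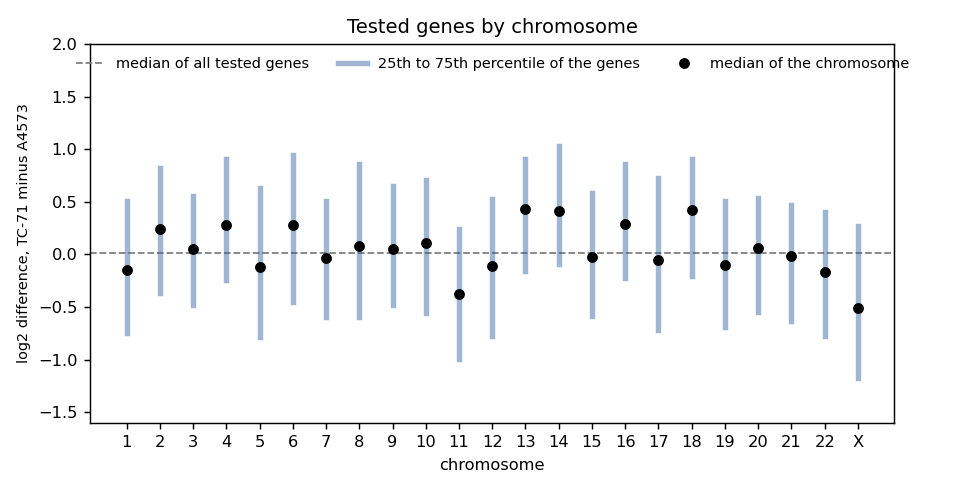
Median log2 difference, TC-71 minus A4573, of the tested genes of each chromosome (points) with the range from the 25th to the 75th percentile (bars), and the median of all tested genes (dashed line). The X and chromosome 11 lie lowest, at -0.51 and -0.37, but the bars of all chromosomes overlap.

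**Figure D5:**
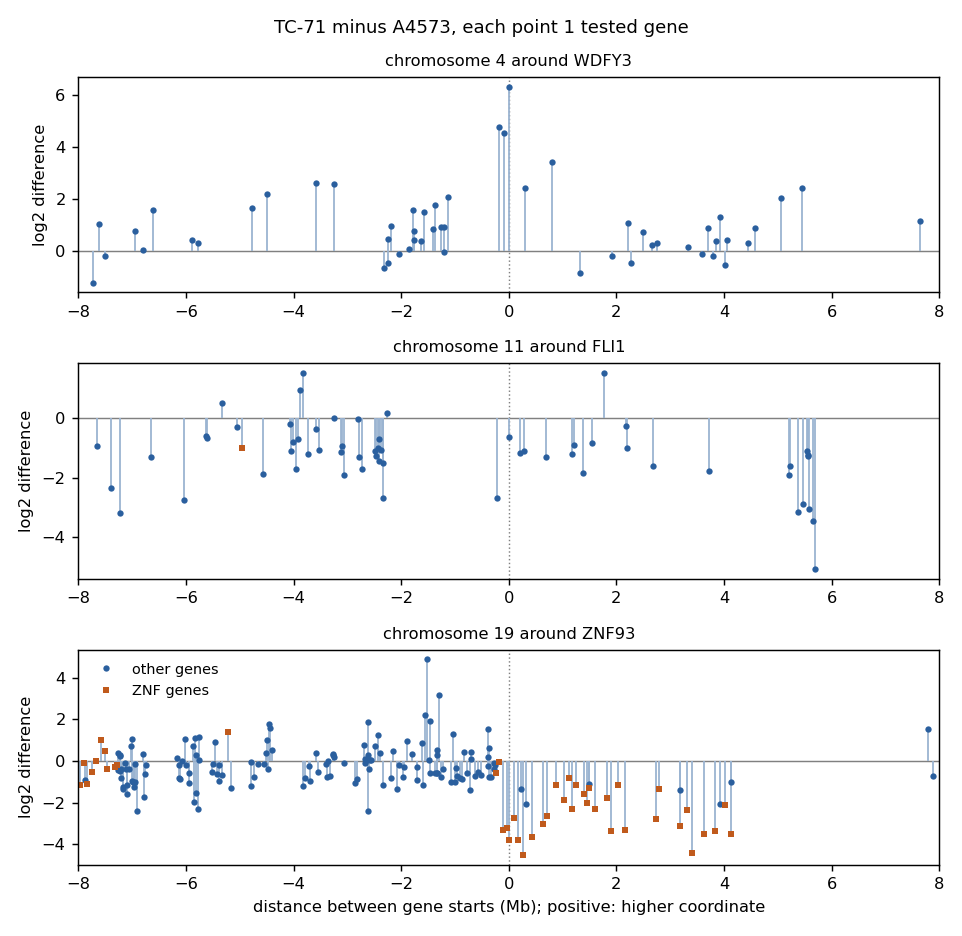
The log2 difference, TC-71 minus A4573, of each tested gene within 8 Mb of WDFY3, FLI1 and ZNF93, by distance between gene starts in Mb (squares, ZNF genes; circles, other genes). Near WDFY3 a short run is high in TC-71, beyond FLI1 nearly all genes are lower, and beyond ZNF93 the ZNF genes are lower as a block.

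Long noncoding and low genes leaned towards TC-71. The median was 0.55 for 262 lincRNA genes and 0.53 for 337 antisense genes beside -0.02 for 12399 protein-coding genes. With genes split into 4 equal bins by mean CPM, the median went from 0.29 in the lowest bin to -0.20 in the highest, and in 4 bins by exon length it stayed between -0.03 and 0.11. Among abundant lists, glycolysis, contractile genes and tubulins lie on the lower side of that trend. More abundant lists went the other way. Mitochondrially encoded genes added up to 16554 CPM in A4573 and 36131 CPM in TC-71 (median 1.24). Cytosolic ribosomal proteins added up to 32847 and 38117 CPM (31 of 53 higher, 19 lower, median 0.18). The part of the trend in the differences of these lists was not tested.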

How the data were processed

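RNA of cultured cells was sequenced in 12 libraries, of which the 6 parental ones were compared. Members, gene lists and the comparison were chosen with earlier results of these data known. The deposited signal values are normalised read counts in CPM on a scaled library size, and the columns of different libraries have different sums. Trimmomatic, STAR 2.4, HTSeq, edgeR and the build GRCh38 are listed, without roles, in the submitters' processing notes. The annotation release, the strand setting and the order of steps are not given in the sources used here. In every library 100% of the values were whole multiples of 1 step (within 0.001), so reads could be recovered.

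Rows that share an HGNC symbol were summed, and 5 unnamed rows (31.1% to 42% of all reads in these libraries) were left out of the tests but remain in the deposited scaling. The design assumed CPM, and the test was kept. Genes reaching 1 CPM in 3 libraries were tested with limma 3.58.1 (R 4.3.3) on log2(CPM + 1) with a mean trend and Benjamini-Hochberg adjustment at 0.05, and the fits were tested on simulated data. The alternatives were pseudocounts of 0.25 and 5, other filters and scalings, edgeR 4.0.16 and DESeq2 1.42.0 on recovered reads, all 12 libraries, library weights, a replicate block and leaving out each library. Chromosome, start and end come from GENCODE 29 on GRCh38, promoters from RefSeq on GRCh38.p14. Named were the 12 called genes at each end with at least 5 CPM in the higher line and no overlap between the lines' libraries, clone names left out. Up to 4 members of each of 66 lists with the largest difference were named too. So were 9 genes in any case (among them EWSR1, FLI1, DHX9 and CDKN2A) and the Ewing sarcoma markers. Other members named to describe a list, and the neighbouring genes, were chosen after their values were seen. Values of genes on chromosome Y, of XIST and of some other genes are not reported here. A floor of 3 reads covers counting error only.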

Additional observations from a re-analysis of the deposited data

How the results depend on the processing

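Of 13809 genes, 12798 were called, and 4372 differed by 2-fold or more. The 2-fold count was 2455 with a pseudocount of 5 CPM, which shrinks the ratios of low genes by construction. With 1 library left out, the calls ranged from 12646 to 12721 and the 2-fold count from 4356 to 4386. A test of recovered reads called 12838 genes with edgeR and 12588 with DESeq2, with 5167 at 2-fold in each. Replicate numbers do not pair the samples: the deviations of same-numbered libraries correlated at r = 0.0042, 0.026 and -0.017 across genes, and with a replicate block 12786 genes were called and 4373 differed by 2-fold. Genes near 0 changed sign with the scaling. Under quantile normalization the log2 difference was 0.1445 for BCL11B, 0.06919 for HOXD13, -0.2233 for MT-CO3, 0.1573 for PHGDH, 0.004104 for RB1 and 0.2415 for VIM. Rescaled over named genes it was 0.07117 for BCL11B, 0.03358 for PHGDH and 0.03064 for VIM, and without mitochondrially encoded genes 0.134 for BCL11B, 0.09674 for PHGDH, 0.05477 for RB1 and 0.09376 for VIM. With library weights BCL11B was at 0.006867, and with 1 library left out between -0.03124 and 0.04425. The cause was not tested. Of the other values of named genes, 10 fell below the threshold and 12 passed it under an alternative, out of 4046. Of 2500 counts of list members under the alternatives, 2441 stayed within 1.5 times the reported count.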
